A study of Rattus norvegicus with 4 samples.

Results

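The genes of Toll-like receptor and endotoxin sensing were followed in the established line RSC96, made from rat Schwann cells, which wrap the axons of peripheral nerves. The set held 10 genes taken by symbol, and it was chosen with earlier results of these data known. It held the receptors Tlr2, Tlr3 and Tlr4, the co-receptors Ly96 and Cd14, the cytosolic sensor Nod1, the adaptor Myd88 and the kinases Irak1, Irak2 and Irak3. All 10 had a row among the 17778 gene rows of the FPKM table, and 0 of these rows were further copies of a symbol. FPKM, fragments scaled by the length of the transcript and by how many fragments were mapped, is a level per length, so levels can be set side by side between genes. Cells of generation 4 were kept overnight in medium lacking serum. The IL-22 group then received recombinant rat IL-22, a relative of IL-10, at 100 ng/ml for 48 h. The control group received 0.1% bovine serum albumin, in which IL-22 was dissolved; how long is not in the labels. Each group had 2 libraries of poly(A) RNA from the same line, and the labels do not say whether these were separate cultures, so the spread behind each p-value may be only technical.

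Toll-like receptors recognise microbial molecules at the cell surface or in endosomes: TLR2 binds lipopeptides, TLR3 double-stranded RNA and TLR4 bacterial lipopolysaccharide (LPS, endotoxin). LPS is handed by CD14 to MD-2, the product of Ly96, which sits in the ectodomain of TLR4, while NOD1 detects a fragment of bacterial peptidoglycan in the cytosol and signals through the kinase RIPK2. Most Toll-like receptors, and the receptors for IL-1 and IL-33, recruit MyD88, which gathers IRAK kinases into a complex that leads to TRAF6 and NF-kappaB, whereas TLR3, and TLR4 from endosomes, use the adaptor TRIF and lead to interferon genes. IRAK3, also called IRAK-M, has little kinase activity and is known, chiefly from mouse macrophages, as an inhibitor of this complex that LPS induces. Expression of several Toll-like receptors has been described in Schwann cells, which meet debris after nerve injury.

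Judged by the steps between low values, depth relative to control library 1 was 1.08 in both IL-22 libraries and 1.28 in control library 2. Absolute depth is unknown. Of the 14 Schwann cell markers looked up, 13 had a row and 8 of these stayed under 1 FPKM in every library, among them the defining Sox10, S100b and Ngfr, which did not exceed 0.0315, 0.0761 and 0.119 FPKM in any library. Of the 5 Schwann cell markers tested 4 were higher and 1 lower with IL-22, where 27.6% of all tested rows were higher and 30.8% lower. Only 2 of these markers, Pmp22 and Ncam1, had a mean of at least 1 FPKM in both groups. Pmp22 had 41.0 and 42.3 FPKM with IL-22 and 18.2 and 20.2 FPKM in controls, and Ncam1 had 34.1 and 38.3 FPKM with IL-22 and 23.9 and 24.9 FPKM in controls, both called higher. Egr2, which drives myelination, had 4.63 and 5.60 FPKM with IL-22 and 0.440 and 0.480 FPKM in controls. Of 10 fibroblast markers 6 were tested, with 4 higher and 2 lower, and the other 4 stayed under 1 FPKM in every library, of which Dcn, Lum and Dpt were listed at 0 in all 4. The highest were Thy1 (241.7 and 241.4 FPKM with IL-22, 201.3 and 222.1 FPKM in controls) and Col1a2 (143.5 and 148.5 FPKM with IL-22, 185.5 and 158.6 FPKM in controls), whose calls were each lost in 6 of 13 alternatives. Next came Fbln1, with 19.4 and 19.8 FPKM with IL-22 and 9.25 and 8.38 FPKM in controls (1.07, limma adjusted p = 1.82e-05). Since the defining Schwann cell markers were near 0, the cells are called here by the name of the line. Of the 10 endothelial cell markers 9 stayed under 1 FPKM in every library. In the libraries of the IL-22 group Socs3, a feedback inhibitor that IL-22 induces through STAT3, had 498 and 533 FPKM, against 161.3 and 165.8 FPKM in controls. Socs3 also stands in the list, given below, of inhibitors that LPS induces, so its rise is not particular to IL-22. Il22ra1, the receptor chain that binds IL-22, was listed at 0 in all 4 libraries.

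With IL-22, genes of the set moved both ways. The inhibitory kinase gene Irak3 rose 2.60-fold, its relative Irak2 rose 1.75-fold and the TLR4 co-receptor gene Ly96 rose, while the adaptor gene Myd88 and the kinase gene Irak1 each fell, to ratios of 0.710 and 0.717. Cd14 and Nod1 did not pass the test, and the 3 receptor genes lay under the expression minimum of a mean of 1 FPKM and were not tested. In bulk RNA, fewer cells of a kind and less RNA per cell cannot be told apart. Each difference is the mean log2(FPKM + 1) of IL-22 libraries less that of controls, a scale that understates the change of low genes, and comes with the standard error and the Benjamini-Hochberg adjusted p of limma, fitted over the 9485 gene rows above the minimum. Of the 7 tested genes of the set 3 were called higher, where 27.6% of all tested rows were, and 2 lower, where 30.8% of all tested rows were. The groups did not overlap in 7 of the 7, where 80.1% of all tested rows did not. These shares are close to those of all rows, so what sets the genes apart is given gene by gene. Ly96 passed the minimum only through its IL-22 libraries. Of the 6 genes at or above 1 FPKM in both group means, 2 were higher and 2 lower.

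**Figure D1:**
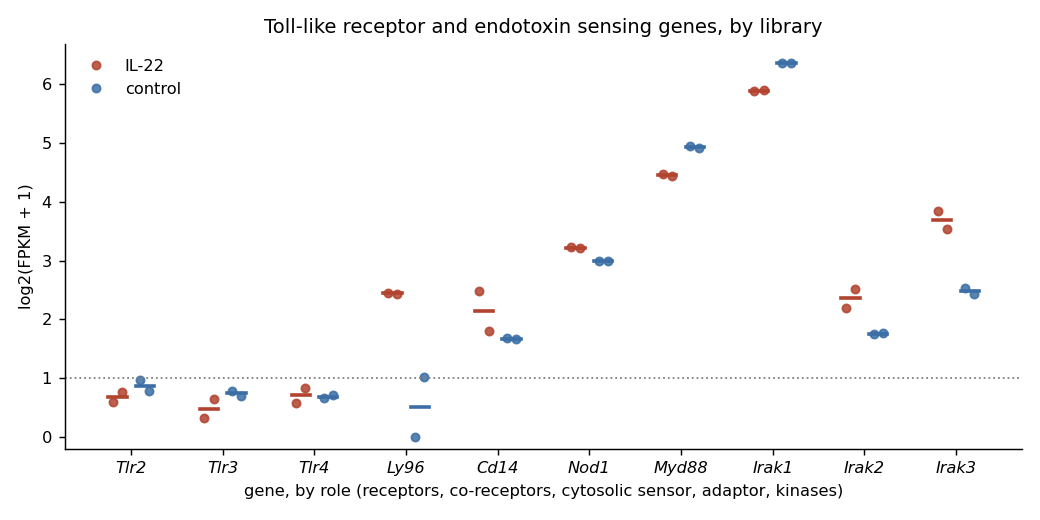
Level of the 10 genes of the set in each library, on a log2(FPKM + 1) scale, with IL-22 left and control right of each name, points for libraries, bars for means and a dotted line at 1 FPKM. Irak3, Irak2 and Ly96 lie higher and Myd88 and Irak1 lower with IL-22, and Tlr2, Tlr3 and Tlr4 stay below the line.

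The promoters of the 3 genes whose changes held under every alternative setting tried and that RefSeq's promoter table lists are shown because these genes carry the result: Irak3, which rose, and Myd88 and Irak1, which fell. RefSeq promoters of the build GRCr8 were matched by symbol for 8 of the 10 genes, with Ly96 and Irak2 having no entry. Each runs 5′ to 3′ from 250 bases before the annotated start to 50 after it, at chr7:57598582-57598881 on the minus strand for Irak3, chr8:127956181-127956480 on the minus strand for Myd88 and chrX:156929776-156930075 on the minus strand for Irak1. Capitals mark letters that match a motif searched on both strands.
Irak3: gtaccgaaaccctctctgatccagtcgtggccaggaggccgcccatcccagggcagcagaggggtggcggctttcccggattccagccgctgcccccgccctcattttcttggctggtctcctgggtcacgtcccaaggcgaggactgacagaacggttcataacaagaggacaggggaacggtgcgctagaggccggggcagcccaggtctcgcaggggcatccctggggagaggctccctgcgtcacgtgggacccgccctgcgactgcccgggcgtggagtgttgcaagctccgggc
Myd88: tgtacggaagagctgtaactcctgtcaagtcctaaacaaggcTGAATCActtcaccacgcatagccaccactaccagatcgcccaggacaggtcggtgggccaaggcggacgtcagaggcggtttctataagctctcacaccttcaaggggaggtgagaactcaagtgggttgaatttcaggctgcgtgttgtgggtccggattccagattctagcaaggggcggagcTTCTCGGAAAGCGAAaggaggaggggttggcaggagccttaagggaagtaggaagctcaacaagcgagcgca
Irak1: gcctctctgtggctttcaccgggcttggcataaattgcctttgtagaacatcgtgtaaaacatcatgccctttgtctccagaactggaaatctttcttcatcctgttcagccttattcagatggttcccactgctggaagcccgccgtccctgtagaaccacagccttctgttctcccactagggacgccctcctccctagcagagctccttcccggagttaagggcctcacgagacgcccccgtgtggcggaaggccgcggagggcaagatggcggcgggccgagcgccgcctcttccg

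Motif letters were GGANNTTCC for kappaB sites, TTCNNNGAA for sites of STAT factors, then TGANTCA for AP-1, TTNNGNAA for C/EBP and GAAANNGAA for the interferon response. The kappaB letters were in 0 of the 8 promoters and in 4.09% of all 33469 promoters of the table. They are a narrow pattern, so 0 matches does not mean that the promoters lack kappaB sites. The Tlr2 promoter holds gggaattccc, a kappaB-like stretch that these letters do not match. The STAT letters were in 1 of the 8, Myd88, and in 8.87% of all. The AP-1 letters were in 1, again Myd88, and in 7.33% of all. The C/EBP letters were in 1, Cd14, and in 41.3% of all. The interferon response letters were in 2, Myd88 and Cd14, and in 9.71% of all. In Myd88 the STAT match TTCTCGGAA begins 22 bases before the start and overlaps the interferon response match GAAAGCGAA, which begins 16 bases before it, while the AP-1 match TGAATCA begins 208 bases before it. The promoters of Irak3 and Irak1 held no match to these 5 letter patterns in this window. The guanine and cytosine content was 67.3% for Irak3, 55.0% for Myd88 and 58.7% for Irak1, where the median of all promoters was 51.7%. These matches describe letters and do not show that a factor binds.

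The receptor genes were low in both groups. Tlr4, the signalling receptor for LPS, had 0.500 and 0.786 FPKM with IL-22 and 0.581 and 0.634 FPKM in controls. The IL-22 libraries lay on either side of the controls, so the groups overlapped, and the difference of 0.03 turned to -0.10 when IL-22 library 2 was left out. Tlr2, which pairs with TLR1 or TLR6, had 0.515 and 0.702 FPKM with IL-22 and 0.964 and 0.712 FPKM in controls. Tlr3, the endosomal receptor for double-stranded RNA, had 0.247 and 0.564 FPKM with IL-22 and 0.726 and 0.626 FPKM in controls. For both genes the IL-22 libraries lay below the controls, for Tlr2 by a narrow margin, and with a minimum of 0.1 FPKM, under which all 3 receptor genes enter the fit, limma gave adjusted p = 0.279 for Tlr2, 0.183 for Tlr3 and 0.886 for Tlr4. The Toll-like receptor with the highest level was not in the set: Tlr5, the receptor for flagellin, had 9.79 and 10.0 FPKM with IL-22 and 12.4 and 13.5 FPKM in controls (-0.35 ± 0.09, limma adjusted p = 0.0107), a call lost without control library 2 (adjusted p = 0.0599).

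Of the co-receptor genes Ly96 passed the test and Cd14 did not. Ly96 had 4.43 and 4.42 FPKM with IL-22, while control library 1 was listed at 0 and control library 2 had 1.02 FPKM. Both IL-22 libraries were above both controls, and the controls differed from each other far more than the IL-22 libraries did. The difference was 1.93 ± 0.28 (limma adjusted p = 0.000382). Ly96 passed the minimum only through its IL-22 libraries, so its calls under alternatives that keep this minimum are not separate support. With no minimum beyond a value above 0 the limma adjusted p was 0.0182. The size of the difference depended on the pseudocount, at 3.76 with 0.1 and 0.78 with 5. No fold is given because a 0 among FPKM values may be an estimate that failed. Cd14, whose product delivers LPS to MD-2 and TLR4, had 4.61 and 2.47 FPKM with IL-22 and 2.22 and 2.16 FPKM in controls. IL-22 library 1 stood apart, and the other IL-22 library lay just above the controls. The difference was 0.47 ± 0.21 (limma adjusted p = 0.0833), or 0.12 without IL-22 library 1 (adjusted p = 0.648) and 0.81 without IL-22 library 2 (adjusted p = 0.00166). With the replicate number as a block the adjusted p was 0.0171.

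Both co-receptors are abundant in macrophages, so markers of leukocytes were read beside them. Of 20 macrophage and leukocyte markers 18 stayed under 1 FPKM in every library and 7 were listed at 0 in all 4, including Aif1, Adgre1 and Tyrobp. Their summed level was 5.38 and 4.12 FPKM in the IL-22 libraries and 3.38 and 3.20 FPKM in the controls. The sum was highest in the library where Cd14 was highest, while Ly96 had 4.43 and 4.42 FPKM in the IL-22 libraries. Ptprc, which encodes the pan-leukocyte protein CD45, had 0.0252 FPKM in IL-22 library 1 and was listed at 0 in the other 3. The 3 highest markers were Cd74, Cd68 and Csf1r. Cd74 had 1.66 and 1.88 FPKM with IL-22 and 0.479 and 0.933 FPKM in controls (0.71 ± 0.19, limma adjusted p = 0.00983, lost with quantile normalization and without control library 1), and it passed the minimum only through its IL-22 libraries. Cd68 had 0.998 and 0.775 FPKM with IL-22 and 1.56 and 1.21 FPKM in controls (-0.34, limma adjusted p = 0.126, called with quantile normalization and without the trend). Csf1r, too low to test, had 0.514 and 0.449 FPKM with IL-22 and 0.696 and 0.814 FPKM in controls. The part of such cells in the values of Ly96 and Cd14 was not tested.

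Nod1 had 8.34 and 8.27 FPKM with IL-22 and 6.92 and 7.00 FPKM in controls. The groups did not overlap and each was tight, but the difference of 0.23 ± 0.10 did not pass (limma adjusted p = 0.0816), except without the trend in limma (adjusted p = 0.043). Ripk2, the kinase through which NOD1 and NOD2 signal, had 15.1 and 14.7 FPKM with IL-22 and 9.13 and 9.73 FPKM in controls and rose by 0.61 ± 0.09 (limma adjusted p = 0.000479). Nod2 itself was listed at 0 in 3 of the 4 libraries and had 0.0646 FPKM in IL-22 library 2.

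Myd88 had 21.3 and 20.6 FPKM with IL-22 and 29.8 and 29.1 FPKM in controls. The controls were higher in every pairing, and the libraries of a group differed little. It fell by 0.47 on the log2 scale with a standard error of 0.08 (limma adjusted p = 0.000681), with a difference between -0.50 and -0.41 in all 13 alternatives. Irak1, the kinase that MyD88 complexes activate and that is then degraded as a protein, was the most abundant gene of the set, with 57.7 and 58.5 FPKM with IL-22 and 81.3 and 80.9 FPKM in controls. It fell by 0.47 as well (standard error 0.06, limma adjusted p = 0.000246), between -0.48 and -0.40 in all 13 alternatives. The ratio of Myd88 to Irak1 FPKM was 0.368 and 0.352 with IL-22 and 0.367 and 0.359 in controls, so the ratios overlapped between the groups.

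Irak2, a kinase homologue that sustains NF-kappaB signalling in mouse macrophages, had 3.60 and 4.74 FPKM with IL-22 and 2.35 and 2.42 FPKM in controls. The IL-22 libraries were both higher, and they were farther from each other than the controls were. The difference was 0.60 ± 0.15 (limma adjusted p = 0.00706). Its call was lost without IL-22 library 2 (adjusted p = 0.0682), control library 1 (0.0582) or control library 2 (0.0505) and kept without IL-22 library 1 (difference 0.76, adjusted p = 0.00206), and the difference was 0.31 with a pseudocount of 5. Irak3 had 13.3 and 10.6 FPKM with IL-22 and 4.78 and 4.41 FPKM in controls. Both IL-22 libraries held more than 2 times the level of either control. The difference of 1.20 ± 0.12 (limma adjusted p = 5.43e-05) ranged from 0.82 to 1.35 in the 13 alternatives and passed in every one.

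The make-up of the IRAK genes differed between the groups and is given as values with no test. Irak1 made up 77.4% and 79.2% of the summed FPKM of Irak1, Irak2 and Irak3 with IL-22, against 91.9% and 92.2% in controls. Irak3 made up 17.8% and 14.4% with IL-22, against 5.41% and 5.03% in controls, and Irak2 4.82% and 6.42% against 2.66% and 2.75%. None of these shares overlapped between the groups, which follows from the levels of the 3 genes given above and is not a further result. The summed FPKM was 74.6 and 73.8 with IL-22 and 88.4 and 87.8 in controls, so the sum was lower while its smaller parts were higher. The ratio of Irak3 to Myd88 was 0.625 and 0.514 with IL-22 and 0.160 and 0.152 in controls. In the order of levels Irak3 stood above Nod1 in both IL-22 libraries and below it in both controls. Irak1 and Myd88 stayed the first and second of the set in all 4 libraries.

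**Figure D2:**
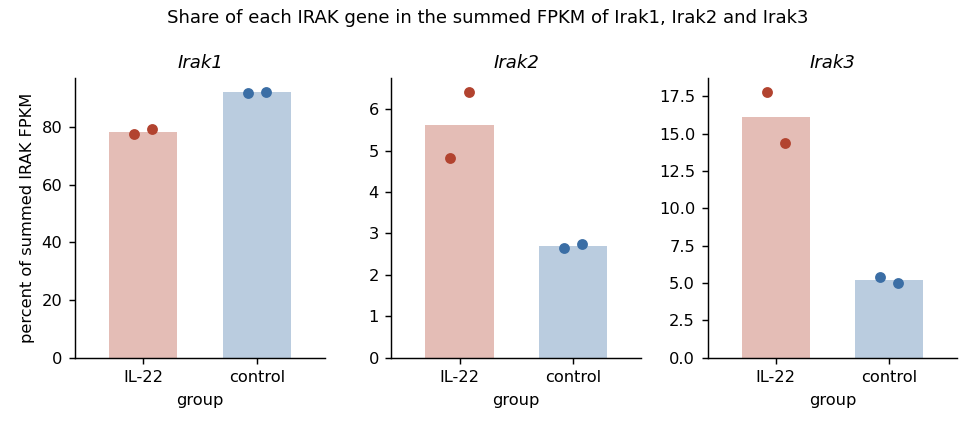
Share of Irak1, Irak2 and Irak3 in their summed FPKM, in percent, with bars for the mean of 2 libraries, points for libraries, and an axis of its own for each gene. Irak3 took 17.8% and 14.4% with IL-22 against 5.41% and 5.03% in controls, and Irak1 took less.

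Other genes of the pathway, listed by role, moved both ways. Of 61 listed genes 55 had a row and 36 were tested, of which 13 were higher, 7 lower and 16 did not pass, where 27.6% of all tested rows were higher and 30.8% lower. Peli3, one of the 13, passed the minimum only through its IL-22 libraries, and the other 35 gave 12 higher and 7 lower. The median difference was -0.02, as for all tested rows (-0.02). Genes without a row, which could not be read, included Ticam1, which encodes TRIF, the adaptor gene Tirap, and Tnfaip3, which encodes A20. Of the 19 with a row that were too low to test, 11 were listed at 0 in all 4 libraries, among them Lbp, which brings LPS to CD14, the TLR4 relative Cd180 with its partner Ly86, and the endosomal Tlr7 and Tlr8. The largest changes were those of Il1rl1, the IL-33 receptor gene, one form of which restrains TLR4 signalling in mice (139.2 and 120.2 FPKM with IL-22, 57.7 and 57.3 FPKM in controls), and of Irf7, an interferon-inducing factor (5.53 and 5.46 FPKM with IL-22, 10.4 and 12.3 FPKM in controls). Il1rl1 rose by 1.16 ± 0.08 (limma adjusted p = 4.94e-06) and Irf7 fell by 0.92 (limma adjusted p = 0.000139). Then came 4 higher genes: Nfkb1, the NF-kappaB subunit p105 (0.66), Tnip1, a partner of the inhibitor A20 (0.65), Irf5, a factor for inflammatory cytokine genes (0.63), and Unc93b1, the carrier of endosomal Toll-like receptors (0.61).

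By role, and picked after their values were seen to complete the picture, the kinases that lead to interferon factors parted, with Ikbke higher (0.33, limma adjusted p = 0.0148, lost without IL-22 library 2 or control library 2) and Tbk1 lower (-0.53, limma adjusted p = 0.00145). Among ubiquitin enzymes and scaffolds Peli1, a ligase that acts on IRAK proteins, was higher (0.39) and Ube2v1, part of the enzyme that makes chains for TRAF6, lower (-0.40). Map3k7, which encodes the kinase TAK1 downstream of TRAF6, was lower by 0.31 (limma adjusted p = 0.0119, lost without IL-22 library 2 or control library 1). Tollip, an adaptor that restrains IRAK1, had 24.9 and 27.7 FPKM with IL-22 and 21.8 and 23.0 FPKM in controls (0.22, limma adjusted p = 0.049), and lost its call in 6 of 13 alternatives. Irak4, which starts the kinase cascade at MyD88, had 3.96 and 4.11 FPKM with IL-22 and 3.26 and 3.07 FPKM in controls and did not pass (limma adjusted p = 0.0883), and Traf6 had 6.57 and 7.82 FPKM with IL-22 and 5.62 and 6.76 FPKM in controls, with overlapping groups (adjusted p = 0.232).

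**Figure D3:**
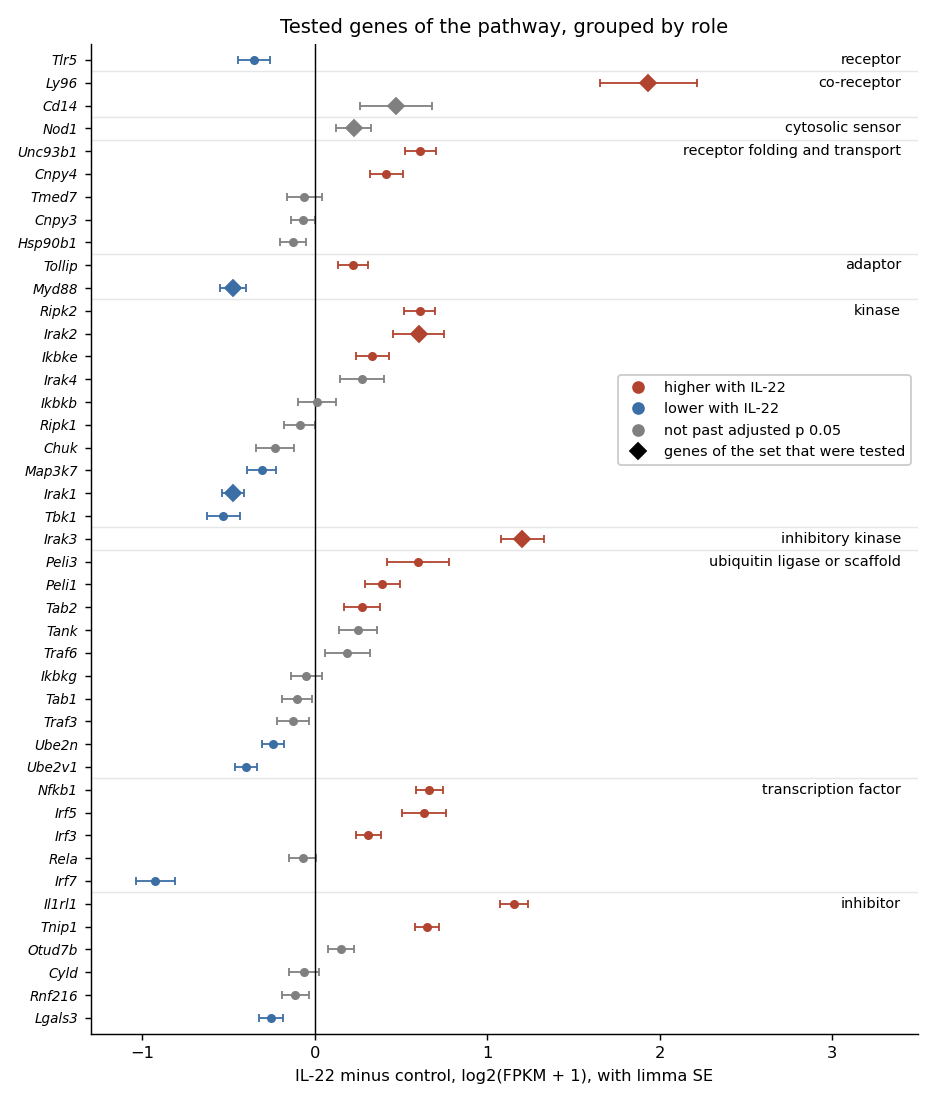
Difference (IL-22 minus control, in log2 of FPKM + 1) and its limma standard error for the tested genes of the pathway grouped by role, with diamonds for genes of the set. Changes go both ways within kinases, scaffolds and transcription factors, and Ly96 and Irak3 lie farthest to the right.

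Lists around the pathway are given as counts, with no test of a list, and several genes stand in more than 1 list. The lists were chosen with earlier results of these data known, so their counts only describe. Cytosolic sensors other than NOD1 were listed together with adaptors and effectors that act with them, and 15 of the 21 listed genes had a row. This list gave 4 higher and 3 lower of 11 tested (median -0.14), where 27.6% of all tested rows were higher and 30.8% lower. Casp4 passed the minimum only through its IL-22 libraries, and the other 10 gave 3 higher and 3 lower. Casp4, the rat counterpart of the mouse caspase that binds LPS inside cells, had 14.7 and 15.7 FPKM with IL-22 and 1.18 and 0.734 FPKM in controls (3.06 ± 0.14, limma adjusted p = 5.24e-07). Gsdmd, the pore protein gene that this caspase cleaves, went the other way, with 15.4 and 17.8 FPKM with IL-22 and 28.3 and 25.4 FPKM in controls (-0.66, limma adjusted p = 0.000397). Tmem173, which encodes the DNA-sensing adaptor STING, had 12.4 and 12.0 FPKM with IL-22 and 3.82 and 4.51 FPKM in controls (1.35), Dhx58, an RNA sensor gene, rose by 1.23, and the inflammasome sensor gene Nlrp1a fell by 0.76. Casp1 was listed at 0 in all 4 libraries.

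Proteins described as ligands of TLR2 and TLR4 when released from cells were encoded by 10 tested genes, of which 2 were higher and 6 lower (median -0.34). Of all tested rows 27.6% were higher and 30.8% lower. Hmgb1, a chromatin protein, had 29.6 and 26.5 FPKM with IL-22 and 74.9 and 69.4 FPKM in controls and fell by 1.33. The chaperone genes Hsp90aa1 (-0.98), Hspd1 (-0.95) and Hspa8 (-0.85) also fell, while the matrix gene Tnc, named after its value was seen, rose by 0.72. S100a8 and S100a9 were listed at 0 in all 4 libraries.

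Genes induced through MyD88 and NF-kappaB in many cells are also induced by receptors outside the Toll-like family. Of 33 such genes listed, 31 had a row and 11 of these were too low to test. This list too was chosen with earlier results of these data known, so its count is a description and not a test. The 20 tested gave 20 higher and 0 lower, where 27.6% of all tested rows were higher and 30.8% lower. Their median was 2.38, where the median of all tested rows was -0.02. Of the 20 tested, 15 had a mean of at least 1 FPKM in both groups, and all 15 were higher. The remaining 5 passed the minimum only through the IL-22 libraries. The chemokine gene Cxcl1 had 413.9 and 386.7 FPKM with IL-22 and 3.73 and 4.55 FPKM in controls (6.29 ± 0.09, limma adjusted p = 3.8e-10), and Csf3 (5.39), Ccl2 (3.72) and Cxcl3 (3.59) followed. Tnf and Il1b were listed at 0 in all 4 libraries.

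Genes that the TRIF branch and interferon induce gave 6 higher and 7 lower of 15 tested, where 27.6% of all tested rows were higher and 30.8% lower. Their median was 0.02. Rsad2, an antiviral enzyme gene, had 8.34 and 8.57 FPKM with IL-22 and 0.790 and 1.23 FPKM in controls (2.24), and Oasl (1.51) and Cxcl10 (1.07) rose. Ifi44 fell by 1.06, and Isg15 (-0.93) and Irf1 (-0.71), named after their values were seen, fell too. Ifnb1, the interferon gene that TRIF signalling induces, and Ccl5 were listed at 0 in all 4 libraries.

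Inhibitors that LPS induces, the list that holds Irak3, gave 13 higher and 1 lower of 17 tested, where 27.6% of all tested rows were higher and 30.8% lower. Of these, Il10 and Il1rn passed the minimum only through the IL-22 libraries, and the 15 genes with a mean of at least 1 FPKM in both groups gave 11 higher and 1 lower. The median of the 17 was 1.09. Il10, the gene of an anti-inflammatory cytokine, had 6.09 and 7.88 FPKM with IL-22 and was listed at 0 in both controls. Bcl3 (2.79), Atf3 (2.66) and Zc3h12a (2.17), which encodes an RNase that degrades cytokine mRNAs, rose as well. Nfkbia, which encodes the NF-kappaB inhibitor IkappaB-alpha, had 85.6 and 91.4 FPKM with IL-22 and 25.9 and 27.4 FPKM in controls (1.70), and Il1rn, the gene of the IL-1 receptor antagonist, rose by 1.25. Both were named after their values were seen. The lower gene was Socs1, with 3.43 and 3.54 FPKM with IL-22 and 7.03 and 7.47 FPKM in controls (-0.88, limma adjusted p = 0.000196).

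**Figure D4:**
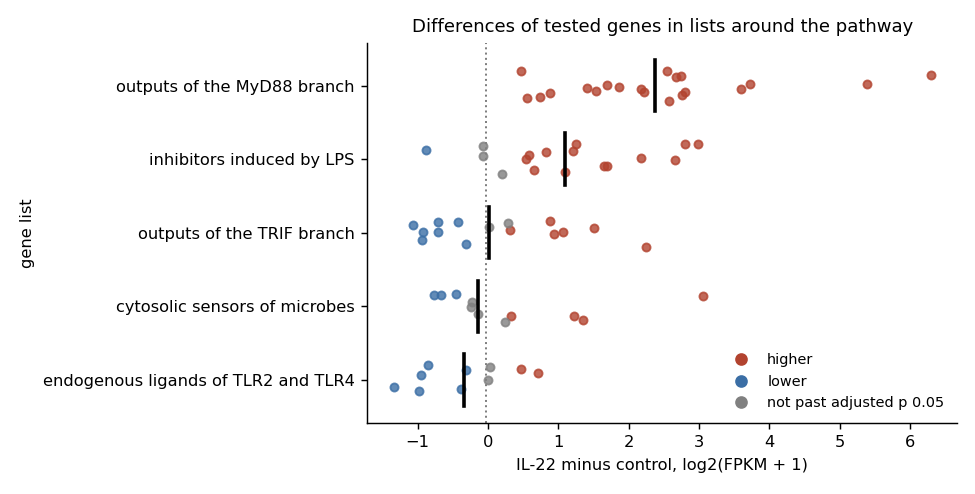
Difference (IL-22 minus control, in log2 of FPKM + 1) for tested genes of 5 lists around the pathway, with black bars for list medians and a dotted line for the median of all tested rows (-0.02). All 20 tested outputs of the MyD88 branch lie above 0, and the outputs of the TRIF branch spread to both sides. The lists were chosen with earlier results of these data known.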

How the data were processed

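RNA-seq of 4 libraries was used, 2 per group, grouped by their titles. The authors deposited FPKM with 1 column per library, and per the submitters' processing notes used TopHat2 and Cuffdiff with the build rn5, with no versions. The annotation, filters, strand setting and further scaling are not given in the sources, so reads of antisense or overlapping genes may be mixed. As FPKM hold no counts, neither count tests nor counting intervals were used. The deposited lncRNA table was not used.

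Relative depth came from the commonest ratio of rows under 0.15 FPKM. Where rows share a symbol the highest mean stood for it. The log2(FPKM + 1) values of rows averaging 1 FPKM or more were fitted by limma 3.58.1 (R 4.3.3) without covariates, using eBayes and its trend option, and a two-sided p-value was called under 0.05 after Benjamini-Hochberg adjustment. The fit was run on simulated data with independent noise, in which 50 genes were changed at each of the folds 1.5, 2, 4 and 8. It recovered 100% at each fold, with 9 false calls. Changed genes were drawn only from those with a control mean above 1 on the log2(FPKM + 1) scale. Each gene was given a smoothed spread for its level, not its own. That simulation also holds no smaller changes and no libraries that repeat the same culture, so it does not bear on single calls here. An exact permutation test of 2 libraries against 2 cannot go below 0.333. Tables were made in Python 3.11.15 with pandas 2.3.3 and numpy 2.4.6, figures with matplotlib 3.10.9.

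The 11 lists, the set among them, were chosen with earlier results of these data known. Named were the set, the 4 largest called differences per list (6 for the pathway), the 3 highest markers per cell type, Sox10, S100b, Ngfr, Il22ra1, Il10rb and Socs3. Not every gene the rule takes is described: Il10rb had 9.18 and 8.48 FPKM with IL-22 and 7.53 and 8.39 FPKM in controls, and the highest endothelial markers Tek, Vwf and Eng did not exceed 1.46 FPKM. Genes outside the rule complete a role or a count and were chosen after their values were seen. Alternatives were other pseudocounts and minimums, median-of-ratios size factors, quantile normalization, robust eBayes, eBayes with no trend, the replicate number as a block, and leaving out each library, whose partner was then assumed to vary like the other group.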

Additional observations from a re-analysis of the deposited data

How the results depend on the processing

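Under the 13 alternatives, between 2 and 4 genes of the set were higher and 2 were lower, and between 9 and 13 other pathway genes were higher and between 5 and 7 lower. No direction of a tested gene of the set turned under these alternatives. With the replicate number as a replicate block 4 genes of the set were higher, Cd14 being added, and 2 lower, with 13 and 7 in the rest of the pathway. Same-numbered libraries did not deviate together (correlation -0.00197 over tested rows), and the labels do not say that a number marks a shared culture. Without one library at a time, 2 or 3 genes of the set were higher, Irak2 dropping out without control library 1 or control library 2. Without IL-22 library 2 Irak2 dropped out and Cd14 came in. Irak3, Ly96, Myd88 and Irak1 passed in every alternative that kept all 4 libraries. Ly96 met the minimum of 1 FPKM only through its IL-22 libraries. Of genes outside the set, Tab2 (0.27) and Nlrx1 (0.33) each lost their call in 6 of 13, and Thy1 and Col1a2 in 6 of 13. The cause of these changes was not tested. Depth limits what can be said of Tlr2, Tlr3 and Tlr4, which lay under 1 FPKM in every library.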
